A study of Homo sapiens with 6 samples.

Results

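The translation initiation factors are the proteins that bring the ribosome, the initiator tRNA and the mRNA together at a start codon. Their genes were examined in MIA PaCa-2, a long-established line of human pancreatic cancer cells, with or without rhCYGB, a 6His-tagged recombinant human cytoglobin made in E. coli. Untreated cells (n = 3 libraries) were compared with cells given 4 µM rhCYGB for 48 h (n = 3 libraries), all in DMEM with 1% FBS. The members were all genes of the table whose symbol begins with EIF and a digit from 1 to 6, without the eIF2-alpha kinases (EIF2AK), symbols ending in P or in P and digits, and antisense genes. The rule took 50 of 35993 genes, of which 49 are protein-coding and 1, EIF3J-DT, is a noncoding RNA. It also left out EIF4EBP1, EIF4EBP2 and EIF4EBP3, which are not pseudogenes and are described with the regulators.

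In the textbook account, eIF1, eIF1A, eIF3 and eIF5 sit on the small ribosomal subunit, and eIF2 with GTP delivers the initiator tRNA. The eIF4F complex (the cap-binding eIF4E, the scaffold eIF4G and the helicase eIF4A) loads the subunit on the mRNA cap, and eIF5B joins the large subunit at the start codon. eIF2B recharges eIF2 with GTP, a step blocked in stressed cells when eIF2 is phosphorylated, and the 4E-binding proteins hold eIF4E back when the growth kinase mTOR is inactive. Many mRNAs of the translation machinery begin with a C followed by a run of pyrimidines, the 5′ terminal oligopyrimidine (TOP) sequence through which mTOR controls their translation.

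The start sequences are shown because this feature was found at more of the members than of other genes and was not used to choose them. RefSeq promoter windows on GRCh38.p14, from 250 bases before to 50 bases after each annotated start, were found for 43 members (60 windows). EIF2S2, EIF3A, EIF3CL, EIF3E, EIF3G, EIF3H and EIF3L were not in that table. A C as the first transcribed base followed by at least 4 bases of C or T, read on the transcribed strand only, was found at a start of 10 of the 43 members (23.3%) and of 1404 of 27305 genes with a window (5.14%). Among genes that passed the count filter, the shares were 24.4% of 41 members and 7.35% of 10724 genes. The 30 bases around the start (15 before it, 15 from it on) of 9 of the 10 are given here with the pyrimidine run from the start in capitals, and the tenth, EIF2S3B, is a near-copy of EIF2S3.
EIF2A, chr3:150546772-150546801, plus strand: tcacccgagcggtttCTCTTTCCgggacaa
EIF2D, chr1:206612451-206612480, minus strand: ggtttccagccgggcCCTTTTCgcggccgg
EIF2S3, chrX:24054941-24054970, plus strand: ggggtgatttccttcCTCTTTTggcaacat
EIF3D, chr22:36529152-36529181, minus strand: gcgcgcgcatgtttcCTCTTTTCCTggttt
EIF3F, chr11:7987322-7987351, plus strand: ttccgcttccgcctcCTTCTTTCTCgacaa
EIF3K, chr19:38619173-38619202, plus strand: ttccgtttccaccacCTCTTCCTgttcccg
EIF3M, chr11:32583816-32583845, plus strand: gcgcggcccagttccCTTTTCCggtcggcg
EIF4A2, chr3:186783562-186783591, plus strand: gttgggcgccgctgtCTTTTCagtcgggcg
EIF4B, chr12:53006441-53006470, plus strand: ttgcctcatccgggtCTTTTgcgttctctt

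The starts of EIF1 and EIF1B, the members with the largest rises, and of EIF4A1 and EIF5A2 hold no such run. The RefSeq starts of EIF5A, 6 in number, hold none either.
EIF1, chr17:41688870-41688899, plus strand: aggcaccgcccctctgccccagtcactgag
EIF1B, chr3:40309692-40309721, plus strand: tcggccattttgtgcgagaagccgcagcgc
EIF4A1, chr17:7572810-7572839, plus strand: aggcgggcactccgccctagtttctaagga
EIF5A2, chr3:170908623-170908652, minus strand: cccgccccgtctcttggaactgccgcggcc

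Counts on genes summed to between 34838399 and 42271299 per library, of which the 50 members took between 1.25% and 1.46%. Libraries of the same group differed by more than counting error (chi-square per degree of freedom of 4.67 to 6.61), and no label says whether they came from separate cultures, so the p-values measure only the spread between these libraries. The epithelial keratins KRT8, KRT18 and KRT19 were detected, with a summed level of 2269 to 2373 FPKM (fragments scaled to length and depth) in untreated and 1597 to 1715 FPKM in rhCYGB libraries, and EPCAM had fewer than 10 counts in every library. KRT8 (log2 fold change -0.81) and KRT19 (-0.61) were lower, and KRT18 did not pass (adjusted p = 0.32). Of 6 fibroblast markers 2 could be tested, with a summed level of 28.1 to 30.8 FPKM untreated and 3.47 to 3.88 FPKM with rhCYGB, and PDGFRB, LUM and DCN had fewer than 10 counts. Of these 2, COL1A2 was lower (log2 fold change -4.37) and ACTA2 did not pass (-0.08, adjusted p = 0.55). Of 3 endothelial markers only CDH5 could be tested (summed level 25.2 to 27.8 against 2.16 to 2.72 FPKM), and of 3 leukocyte markers only CD68 (19.0 to 20.8 against 34.6 to 35.1 FPKM), while PECAM1, VWF, PTPRC and CD3E had fewer than 10 counts. The part of these markers in the results was not tested, and in bulk RNA a change in the mix of cells and a change in RNA per cell cannot be told apart.

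More initiation factor genes rose than fell after rhCYGB. Of the 48 members tested, 27 were higher and 13 were lower (quasi-likelihood test of edgeR, adjusted p below 0.05 by Benjamini-Hochberg over 14728 genes), and 8 did not pass. The 40 called members are 83.3% of those tested, beside 77.6% of all genes tested. Members called higher were 56.3%, beside 39.0% of all genes, and members called lower were 27.1%, beside 38.6%. The median log2 fold change was 0.22 over the members and -0.0046 over all genes tested. Past 2-fold as well were 7 members (14.6%), beside 27.1% of all genes, of which 5 were higher (12.4% of all genes) and 2 lower (14.7% of all genes). The CPM values (counts relative to the scaled library size) of the groups did not overlap for 38 of the 48 members, beside 79.5% of all genes. EIF1AY and EIF4E1B had 0 counts in every library, which allows up to 0.0669 to 0.0902 CPM depending on the library (3 counts, counting error only).

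The split between rises and falls depended on how libraries were scaled. Relative to total counts without a scaling factor, 22 members were higher and 19 lower, and the median of all genes moved to -0.17 on the log2 scale. Of the calls over all genes, 41.0% were higher relative to total counts, beside 53.7% of the members' calls. With the scaling used here (edgeR TMM factors) these shares were 50.2% and 67.5%. The members' median lay above that of all genes by 0.226 with TMM factors and by 0.227 both relative to total counts and with upper-quartile factors. The distance was 0.129 on log2(FPKM + 1) and 0.200 on log2(FPKM + 0.1). The changes given here are relative to the median gene. As a share of all counts of a library, the members rose from 1.25% ± 0.0012 (SD, n = 3) in untreated to 1.46% ± 0.0071 (SD, n = 3) in rhCYGB libraries (exact two-sided permutation test p = 0.10, the smallest that 3 against 3 allows). EIF1 alone went from 0.0390% to 0.136% of the counts, and without EIF1 the members' share was 1.21% and 1.32%. The share of the counts on mitochondrial genes was 7.42% to 7.85% in untreated and 6.74% to 7.13% in rhCYGB libraries, and its part in the scaling was not tested.

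**Figure D1:**
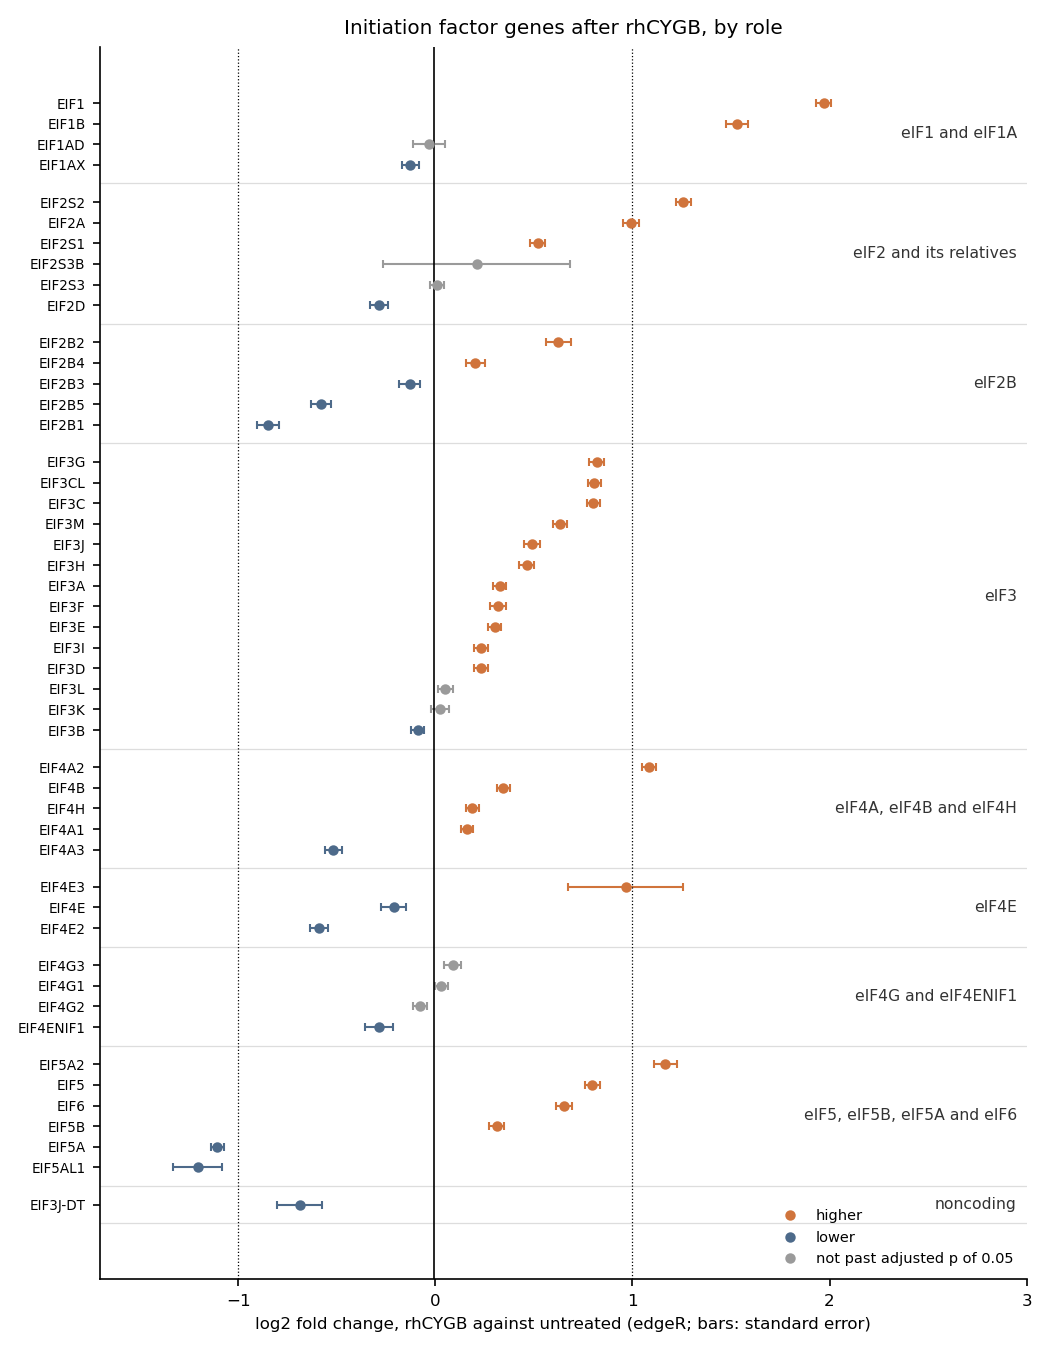
Log2 fold change of each of the 48 tested members after rhCYGB (horizontal axis, edgeR, bars for the standard error), ordered by role. The solid line marks the median of all genes tested (-0.0046) and the dotted lines mark 2-fold, which EIF1, EIF1B, EIF2S2, EIF5A2 and EIF4A2 passed upward and EIF5A and EIF5AL1 downward.

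The largest change was the rise of EIF1, the factor that keeps the scanning subunit open and enforces the choice of start codon. Its CPM was 382, 371 and 351 in untreated libraries 1, 2 and 3, and 1473, 1451 and 1407 in rhCYGB libraries 1, 2 and 3. The lowest rhCYGB library stood far above the highest untreated library. The rise was 3.92-fold (log2 fold change 1.97 ± 0.038 SE, adjusted p = 2.0e-15). EIF1B, a second gene for an eIF1 protein, was at 18.7, 18.9 and 19.4 CPM in untreated and 58.1, 54.6 and 51.9 CPM in rhCYGB libraries. Here too the groups were apart, by 2.89-fold (log2 fold change 1.53 ± 0.057 SE, adjusted p = 1.9e-12). No stretch of 100 bases was shared without mismatch between the longest EIF1B transcript of GENCODE v29 and any EIF1 transcript. On the per-length scale, EIF1 went from 147 ± 5.2 FPKM (SD, n = 3) to 514 ± 12.0 FPKM (SD, n = 3).

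The partner of eIF1 on the subunit, eIF1A, moved little. EIF1AX was at 232, 238 and 241 CPM in untreated and 233, 206 and 213 CPM in rhCYGB libraries, so the groups overlapped. Its fall of 0.13 on the log2 scale (SE 0.044) passed the test (adjusted p = 0.017). That call was lost without untreated library 3 (log2 fold change -0.11, adjusted p = 0.054), without rhCYGB library 2 (-0.09, adjusted p = 0.085) and without rhCYGB library 3 (-0.11, adjusted p = 0.0501). EIF1AD, whose protein has an eIF1A-like domain, did not pass (log2 fold change -0.03 ± 0.082 SE, adjusted p = 0.74), and its reads cannot be told from those of the overlapping BANF1 unless strand was used in counting, which is not stated.

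**Figure D2:**
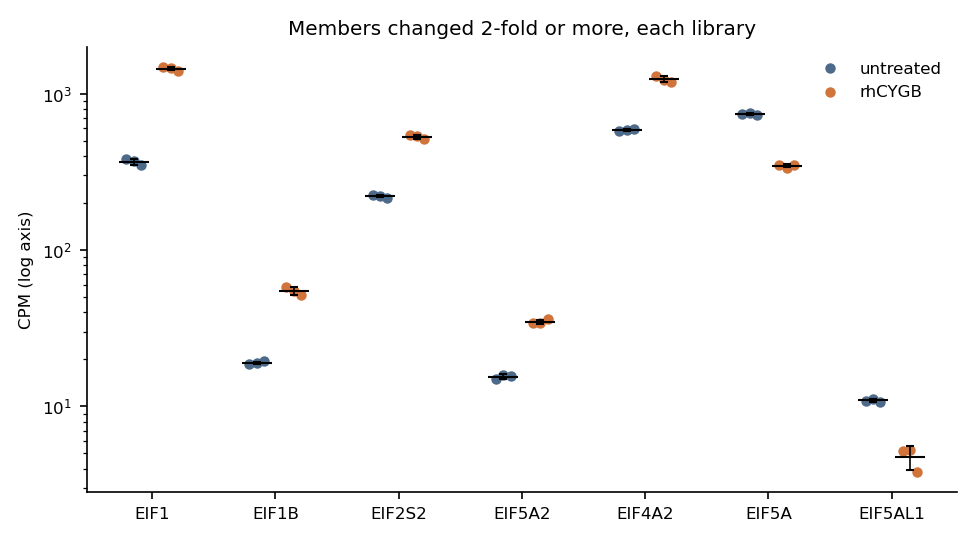
CPM of the 7 members changed 2-fold or more in each library (points, log axis), with the group mean and SD in black. In each of the 7 genes the untreated and the rhCYGB libraries lie apart, the widest gap being that of EIF1 (350.96 to 382.20 CPM against 1407 to 1473 CPM).

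The 3 subunits of eIF2, which are used in equal numbers in the complex, did not move together. EIF2S2 (the beta subunit) was at 224, 223 and 217 CPM in untreated and 543, 535 and 512 CPM in rhCYGB libraries. The groups did not overlap, with a rise of 2.39-fold (log2 fold change 1.26 ± 0.037 SE, adjusted p = 1.3e-13). EIF2S1 (the alpha subunit, which carries the regulatory phosphorylation site) rose by less, from 133 ± 2.4 to 190 ± 4.2 CPM (SD, n = 3, log2 fold change 0.52). EIF2S3 (the gamma subunit, which binds GTP and the tRNA) was at 662, 642 and 635 CPM in untreated and 665, 634 and 651 CPM in rhCYGB libraries, which overlap (log2 fold change 0.01, adjusted p = 0.84). With upper-quartile factors (log2 fold change -0.13), relative to total counts and by FPKM (-0.16 each), EIF2S3 was called lower. On the per-length scale the order of the subunits changed, with EIF2S3 (174 ± 2.7 FPKM) above EIF2S2 (80.8 ± 0.79 FPKM) in untreated cells and EIF2S2 (173 ± 4.5 FPKM) above EIF2S3 (156 ± 6.6 FPKM) with rhCYGB, the libraries of the 2 genes not overlapping in either group (n = 3).

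Genes for other proteins that bring the initiator tRNA moved in opposite directions. EIF2A, whose product is separate from the eIF2 complex, was at 79.3, 80.0 and 80.9 CPM in untreated and 160, 154 and 165 CPM in rhCYGB libraries. The groups were apart and the rise was just below 2-fold (log2 fold change 0.99 ± 0.040 SE, adjusted p = 4.0e-12). EIF2D, which acts on ribosomes without eIF2, fell from 65.9, 62.3 and 63.0 CPM to 50.6, 53.3 and 53.2 CPM (log2 fold change -0.28 ± 0.046 SE, adjusted p = 4.5e-05). Both genes have a pyrimidine run at the start. EIF2S3B, a near-copy of EIF2S3, had 7 to 21 counts per library and did not pass, and 11.0% of its 100-base windows are found without mismatch in EIF2S3 transcripts.

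The 5 genes of eIF2B all passed the test, as did 77.6% of all genes tested. Of these 5 genes, 2 were higher (beside 39.0% of all genes) and 3 lower (beside 38.6%). EIF2B2 (beta) rose from 23.4, 23.9 and 22.4 CPM to 36.9, 32.6 and 37.8 CPM (log2 fold change 0.62 ± 0.064 SE, adjusted p = 3.0e-07). EIF2B1 (alpha), part of the regulatory subcomplex, fell from 35.1, 35.9 and 37.0 CPM to 19.9, 19.4 and 20.6 CPM (log2 fold change -0.85 ± 0.056 SE, adjusted p = 1.5e-09). In both genes the groups were apart, in opposite directions. EIF2B5 (epsilon), the catalytic subunit, fell from 70.2 ± 2.3 to 47.0 ± 2.5 CPM (SD, n = 3, log2 fold change -0.58). EIF2B4 (delta) was 0.20 higher and EIF2B3 (gamma) 0.13 lower on the log2 scale. The call of EIF2B4 was lost with upper-quartile factors, relative to total counts and by FPKM (log2 fold change 0.03 to 0.06), and that of EIF2B3 (adjusted p = 0.040) was lost without any of the untreated libraries and without rhCYGB library 2 or 3 (adjusted p between 0.053 and 0.12, log2 fold change between -0.11 and -0.13). The call of EIF2B3 was also lost in the DESeq2 Wald test, without the count filter and with the replicate block, in all under 8 of 16 alternatives.

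The eIF3 complex binds the small subunit and is the largest of the factors. Of its 14 genes 11 were higher (78.6%, beside 39.0% of all genes) and 1 was lower (7.14%, beside 38.6%), with a median log2 fold change of 0.32, and none reached 2-fold (27.1% of all genes). Relative to total counts 9 were higher and 3 lower, with EIF3D and EIF3I no longer called and EIF3K (log2 fold change -0.14) and EIF3L (-0.11) called lower. EIF3G, an RNA-binding subunit, rose most, from 134, 131 and 135 CPM to 243, 230 and 233 CPM. The groups lay apart (log2 fold change 0.82 ± 0.037 SE, adjusted p = 1.9e-11). EIF3B, a core subunit, was at 403, 395 and 404 CPM in untreated and 379, 380 and 373 CPM in rhCYGB libraries, a small difference without overlap (log2 fold change -0.09 ± 0.033 SE, adjusted p = 0.025). That call was lost when any 1 of the 3 untreated libraries, rhCYGB library 1 or rhCYGB library 3 was left out (adjusted p between 0.0502 and 0.074, log2 fold change -0.08 to -0.10).

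Between these, EIF3M was 0.63 higher on the log2 scale, EIF3J 0.49, EIF3H 0.46, EIF3A 0.33, EIF3F 0.32, EIF3E 0.30, EIF3D 0.23 and EIF3I 0.23. EIF3L (0.05, adjusted p = 0.24) and EIF3K (0.02, adjusted p = 0.64) did not pass. EIF3C had 13441, 16091 and 14460 counts in untreated and 23352, 20907 and 22697 in rhCYGB libraries, and its near-copy EIF3CL had 12918, 15383 and 13695 in untreated and 22428, 20015 and 21691 in rhCYGB libraries. The values of this pair are nearly the same in each library. Of the 100-base windows of the longest EIF3CL transcript 97.1% are found without mismatch in EIF3C transcripts, so the division of reads between them is uncertain and their log2 fold changes (0.80 and 0.81) are not independent. Without EIF3CL, EIF5AL1, EIF2S3B and EIF3J-DT, 26 of 44 tested members were higher and 11 lower.

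On the per-length scale, EIF3K stood highest of the eIF3 genes in untreated cells at 215 ± 3.4 FPKM (SD, n = 3) and EIF3F lowest at 17.6 ± 0.61 FPKM (SD, n = 3). With rhCYGB, EIF3K (195 ± 11.4 FPKM), EIF3G (178 ± 7.4 FPKM) and EIF3E (172 ± 8.1 FPKM) were next to each other with overlapping libraries (n = 3). EIF3G had been sixth in untreated cells at 113 ± 2.5 FPKM (n = 3). Reads of EIF3G and PPAN-P2RY11 overlap and cannot be told apart unless strand was used in counting, and the same holds for EIF2B1 and DDX55, EIF3A and NANOS1, EIF3I and TMEM234, EIF3J and SPG11, EIF5 and LOC105370687, and EIF5B and REV1. EIF3J-DT, a noncoding RNA read from the EIF3J promoter in the other direction, fell from 291, 363 and 335 counts to 188, 180 and 167 counts (log2 fold change -0.69, adjusted p = 5.5e-05), whereas EIF3J rose.

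**Figure D3:**
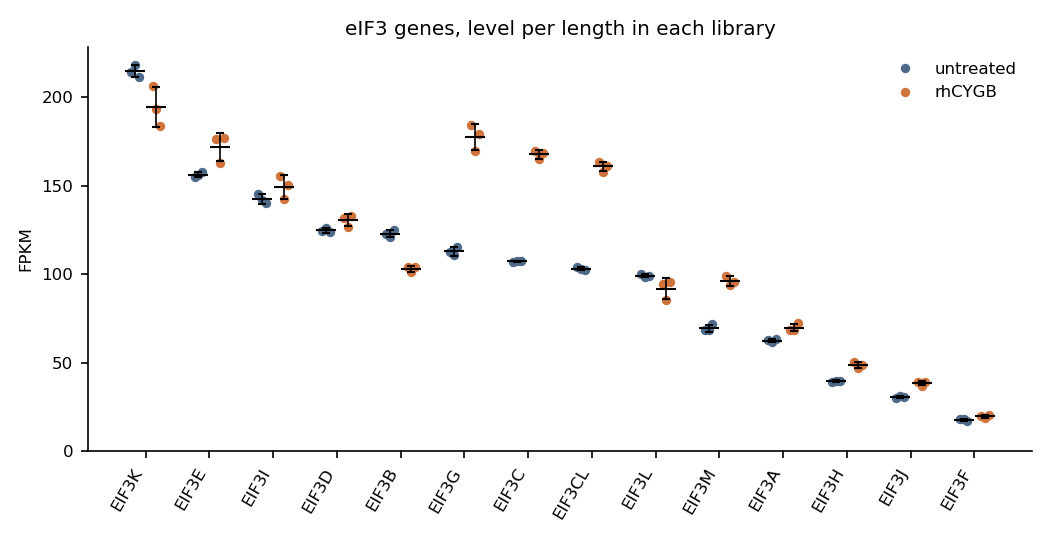
Level per length (FPKM) of the 14 eIF3 genes in each library (points) with the group mean and SD in black, ordered by the untreated mean. EIF3G, EIF3C, EIF3CL and EIF3M stand clearly higher in rhCYGB libraries, whereas EIF3B (123 against 103 FPKM), EIF3K and EIF3L stand lower without overlap.

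Of the eIF4A helicase genes, EIF4A2 rose and EIF4A1 changed little, so their ratio fell. EIF4A2 was at 579, 585 and 593 CPM in untreated and 1299, 1233 and 1192 CPM in rhCYGB libraries. It rose by 2.12-fold (log2 fold change 1.08 ± 0.036 SE, adjusted p = 6.2e-13), and by less than 2-fold with upper-quartile factors, relative to total counts and by FPKM (log2 fold change 0.92 to 0.94). EIF4A1 was at 1128, 1132 and 1130 CPM in untreated and 1285, 1254 and 1248 CPM in rhCYGB libraries (log2 fold change 0.16 ± 0.030 SE, adjusted p = 0.00017), a direction that turned relative to total counts and by FPKM (log2 fold change -0.0054 to -0.0047). The ratio of EIF4A1 to EIF4A2 in FPKM was 2.09, 2.08 and 2.05 in untreated and 1.06, 1.09 and 1.12 in rhCYGB libraries, so the pair went from unequal to nearly equal. The log2 ratio of their counts changed by -0.92 (exact two-sided permutation test p = 0.10, the smallest possible, 7 pairs compared, so the p adjusted over the pairs cannot fall below it). EIF4A2 overlaps RFC4 and small nucleolar RNAs, and EIF4A1 overlaps the read-through gene SENP3-EIF4A1 and small nucleolar RNAs. The division of reads between these and EIF4A2 or EIF4A1 is uncertain.

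EIF4A3, whose protein works in the exon junction complex rather than in eIF4F, fell from 139, 142 and 150 CPM to 100.1, 98.4 and 103 CPM. The groups were apart (log2 fold change -0.52 ± 0.041 SE, adjusted p = 1.5e-08). EIF4B and EIF4H, which stimulate the helicase, were 0.34 and 0.19 higher on the log2 scale, and the call of EIF4H was lost with upper-quartile factors, relative to total counts and by FPKM (log2 fold change 0.02 to 0.05).

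Of the cap-binding eIF4E family, only EIF4E3, present at a trace level, was called higher. EIF4E, the cap-binding subunit of eIF4F, was at 69.2, 59.8 and 66.7 CPM in untreated and 60.4, 52.2 and 56.3 CPM in rhCYGB libraries, with overlap (log2 fold change -0.21 ± 0.062 SE, adjusted p = 0.0062). EIF4E3 rose from 22, 27 and 22 counts to 41, 44 and 36 counts (log2 fold change 0.97 ± 0.29 SE, adjusted p = 0.0072), at a level of 0.0518 to 0.0923 FPKM (group means). The call was lost on log2(FPKM + 1) and log2(FPKM + 0.1), where the added value is larger than this level. EIF4E2, a cap-binding protein that represses translation, fell in read counts, from 62.4, 60.2 and 62.1 CPM to 41.9, 41.1 and 39.7 CPM. The groups were apart (log2 fold change -0.59 ± 0.046 SE, adjusted p = 1.2e-08). On the per-length scale it did not fall, at 31.7, 31.5 and 31.0 FPKM in untreated and 32.1, 29.3 and 30.7 FPKM in rhCYGB libraries, so the direction of its ratio to EIF4E depended on the unit. The log2 ratio of EIF4E to EIF4E2 changed by 0.38 in counts and by -0.33 in FPKM (exact two-sided permutation test p = 0.10 for both).

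The transcript table shows where these units part. In it, 57 of the 123 tested transcripts of the members were called (46.3%), 39 higher and 18 lower, beside 29.9% of all 32577 transcripts tested (15.1% higher and 14.8% lower). Past 2-fold as well were 26 (17 higher and 9 lower), beside 16.9% of all transcripts (8.62% higher and 8.32% lower). The counts of the transcripts are the assembler's division of shared reads, so they are estimates. Transcripts were scaled in a fit of their own, and their log2 fold changes lie slightly below those of the gene fit. For genes with 1 transcript and the same counts, the gene and transcript values were 1.97 and 1.89 (EIF1), -0.85 and -0.93 (EIF2B1) and 0.01 and -0.07 (EIF2S3). Small transcript values are therefore not directly comparable with gene values. EIF4E2 has 4 transcripts of 3410 to 3624 bases and 3 of 935 to 1325 bases. The long transcripts held 1502, 1675 and 1695 counts in untreated and 244, 276 and 223 counts in rhCYGB libraries. The short transcripts held 824, 1022 and 837 counts in untreated and 1312, 1090 and 1241 counts in rhCYGB libraries. Thus the share of EIF4E2 counts on long transcripts was 64.5% ± 2.4 (SD, n = 3) in untreated and 17.0% ± 2.8 (SD, n = 3) in rhCYGB cells. The main short transcript, NM_004846, was called higher (log2 fold change 0.47 ± 0.071 SE, adjusted p = 0.0051), and the long transcripts NM_001276337 (-2.11), NM_001276336 (-2.04) and NM_001282958 (-4.16) were called lower. Also called higher was NM_001330201. Its call was lost with the replicate block, without the count filter, and without untreated or rhCYGB library 1 or 3 (3.62 to 4.37, adjusted p up to 0.13). The calls of NM_004846 and NM_001276337 held whichever of the 6 libraries was left out. That of NM_001276336 was lost without untreated library 2 or 3 or rhCYGB library 1 or 3 (log2 fold change -1.81 to -1.99, adjusted p up to 0.066), and that of NM_001282958 without any untreated library or rhCYGB library 1 or 3 (-3.67 to -4.29, adjusted p up to 0.12). The call of NM_001282958 was also lost without the count filter and with the replicate block.

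Of 26 members with more than 1 tested transcript, 5 had transcripts called in both directions, of which EIF4E2 and EIF4H are described. The share of such genes over the whole data was not counted, so this number cannot be read as particular to the members. EIF4H has 2 transcripts that differ by 60 bases in length. The longer, NM_022170, fell from 2666, 3869 and 3549 counts to 1418, 845 and 1470 counts (log2 fold change -1.33 ± 0.19 SE, adjusted p = 0.0045). The shorter, NM_031992, rose from 15157, 18137 and 16419 counts to 19593, 17159 and 19000 counts (log2 fold change 0.28 ± 0.019 SE, adjusted p = 0.00029). The share of the longer form was 16.8% ± 1.6 in untreated and 6.21% ± 1.3 in rhCYGB cells (SD, n = 3).

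EIF3D and EIF2A had a second transcript that took a larger share after rhCYGB. The noncoding EIF3D transcript NR_156418, 62 bases longer than the coding NM_003753, rose from 313, 401 and 418 counts to 1198, 858 and 1241 counts (log2 fold change 1.65 ± 0.14 SE, adjusted p = 0.00068). Its share was 3.7% ± 0.43 and 10.3% ± 1.4 (SD, n = 3). The coding form was 0.05 higher on the log2 scale and did not pass (adjusted p = 0.30). The EIF2A transcript NM_001319043 held 0, 415 and 215 counts in untreated and 1672, 1447 and 1186 counts in rhCYGB libraries, and it did not pass in this fit (adjusted p = 0.20), while the main NM_032025 was called higher (log2 fold change 0.58, adjusted p = 0.0037).

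**Figure D4:**
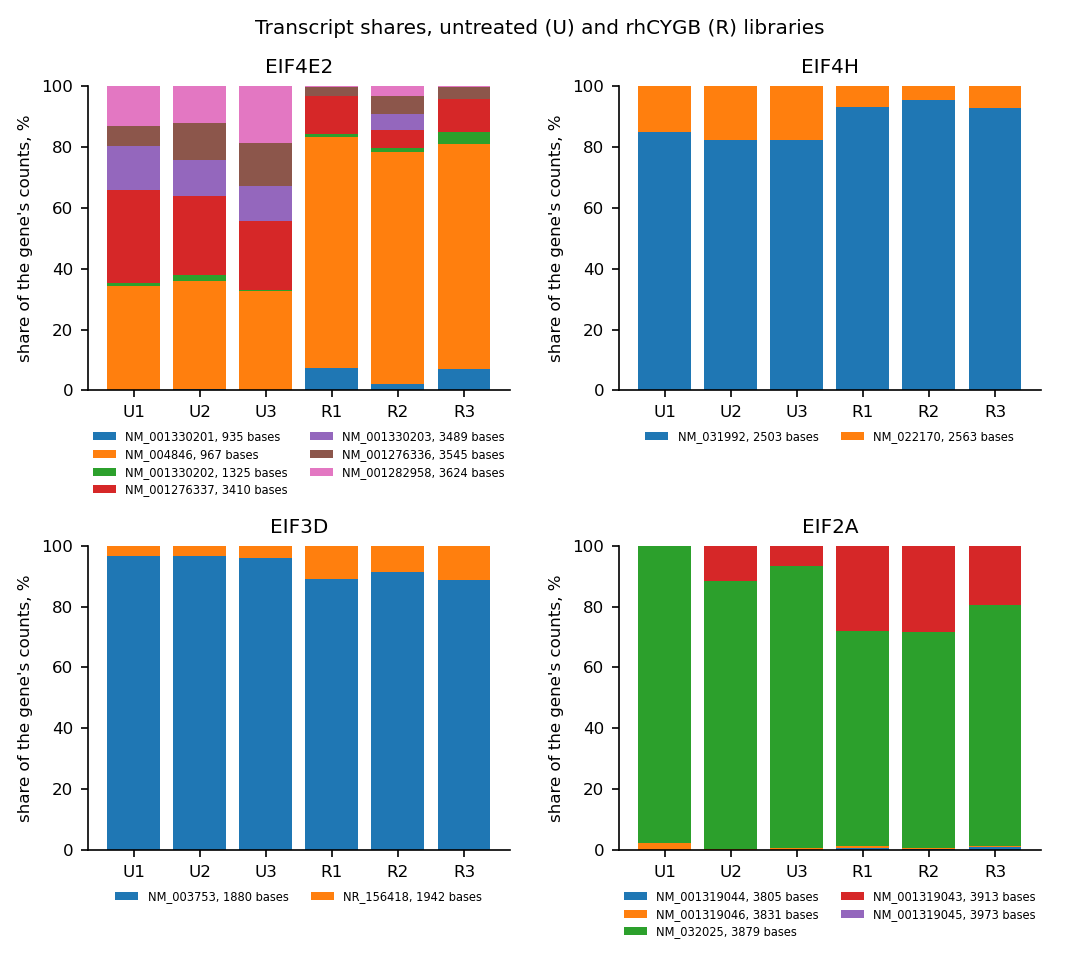
Share of the read counts of EIF4E2, EIF4H, EIF3D and EIF2A assigned to each of their transcripts (percent, stacked bars) in untreated (U1 to U3) and rhCYGB (R1 to R3) libraries. The 4 EIF4E2 transcripts over 3000 bases hold 62.1% to 66.9% of the counts in untreated and 15.2% to 20.2% in rhCYGB libraries.

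The scaffold genes of eIF4G were the group with the smallest differences. EIF4G1 was at 898, 905 and 930 CPM in untreated and 905, 936 and 951 CPM in rhCYGB libraries (log2 fold change 0.03 ± 0.033 SE, adjusted p = 0.41). EIF4G3 was at 127, 122 and 120 CPM in untreated and 127, 128 and 138 CPM in rhCYGB libraries (log2 fold change 0.09 ± 0.042 SE, adjusted p = 0.071). EIF4G2, which lacks the eIF4E-binding part and serves cap-independent initiation, was at 568, 563 and 588 CPM in untreated and 541, 525 and 564 CPM in rhCYGB libraries (log2 fold change -0.08 ± 0.037 SE, adjusted p = 0.068). The libraries of the groups overlapped in all 3 genes. Relative to total counts, EIF4G1 (log2 fold change -0.13) and EIF4G2 (-0.24) were called lower, as they were with upper-quartile factors and by FPKM. EIF4G2 was called lower under 9 of the 16 alternatives in all (log2 fold change -0.08 to -0.24 in these), also with DESeq2 size factors, in the DESeq2 Wald test, with at least 10 counts in every library, with the replicate block (-0.08, adjusted p = 0.038) and without rhCYGB library 3 (-0.10, adjusted p = 0.017), and EIF4G3 passed as higher without rhCYGB library 1 (0.12, adjusted p = 0.023). EIF4ENIF1, which carries eIF4E into the nucleus and into processing bodies, fell from 21.0, 22.7 and 24.2 CPM to 17.5, 19.7 and 18.6 CPM (log2 fold change -0.29 ± 0.071 SE, adjusted p = 0.0018).

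Among the late factors, the eIF5A paralogs moved apart. EIF5A, which helps the ribosome past difficult peptide bonds and at termination, was at 744, 755 and 731 CPM in untreated and 352, 337 and 348 CPM in rhCYGB libraries. It fell 2.15-fold (log2 fold change -1.10 ± 0.034 SE, adjusted p = 2.6e-13). EIF5A2, its paralog, was at 14.9, 15.9 and 15.6 CPM in untreated and 34.3, 34.1 and 36.0 CPM in rhCYGB libraries, a rise of 2.25-fold (log2 fold change 1.17 ± 0.059 SE, adjusted p = 6.0e-11). Its FPKM group means were 2.61 in untreated and 5.24 in rhCYGB libraries. After the addition of 1 or 0.1 to each FPKM value, the log2 fold change of EIF5A2 was 0.79 and 0.98. The groups were apart in both genes. The ratio of EIF5A to EIF5A2 in FPKM went from 210 ± 6.9 to 43.3 ± 1.4 (SD, n = 3), a change of -2.27 in the log2 ratio of counts (exact two-sided permutation test p = 0.10, the smallest possible), so EIF5A remained far above EIF5A2 in both groups. EIF5AL1, a near-copy of EIF5A, fell from 10.9, 11.2 and 10.7 CPM to 5.17, 5.29 and 3.80 CPM (log2 fold change -1.20 ± 0.12 SE, adjusted p = 3.4e-07). Of the 100-base windows of the longest EIF5A transcript 10.3% are found without mismatch in EIF5AL1, so some reads of EIF5AL1 may belong to EIF5A.

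EIF5, which triggers GTP hydrolysis on eIF2, rose from 299, 301 and 288 CPM to 530, 495 and 518 CPM (log2 fold change 0.80 ± 0.037 SE, adjusted p = 2.8e-11). EIF6, which keeps free large subunits from joining, rose from 131, 132 and 122 CPM to 206, 205 and 197 CPM (log2 fold change 0.65 ± 0.041 SE, adjusted p = 7.5e-10). EIF5B was 0.31 higher on the log2 scale. These 3 genes, like EIF5A and EIF5A2, kept their direction and their call under all 16 alternatives tried.

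**Figure D5:**
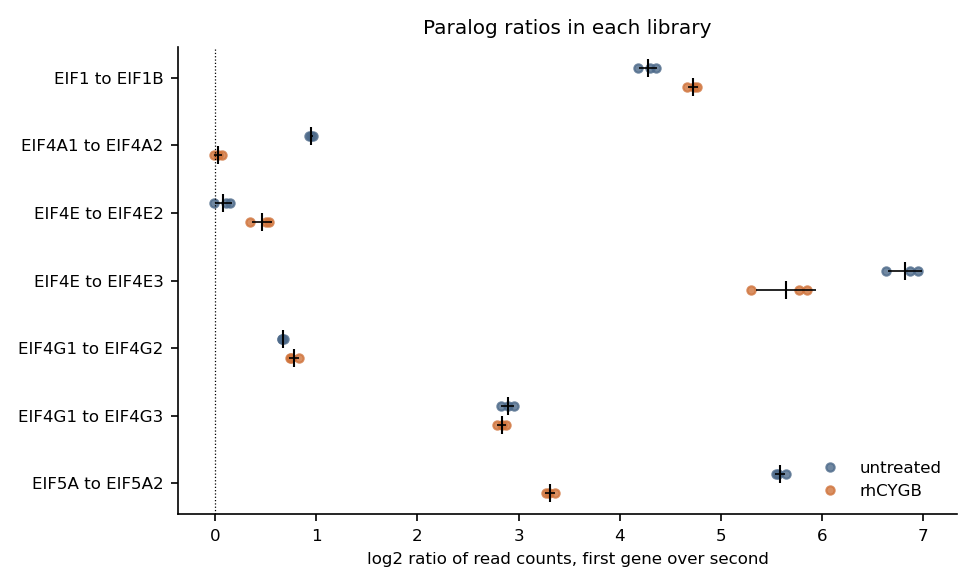
Log2 ratio of the read counts of 7 paralog pairs in each library (points), with the group mean and SD in black. The ratios of EIF5A to EIF5A2 (5.58 against 3.31), EIF4E to EIF4E3 (6.82 against 5.64) and EIF4A1 to EIF4A2 (0.95 against 0.025) are lower with rhCYGB without overlap, and the groups overlap only for EIF4G1 to EIF4G3.

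Of the other pairs, the log2 count ratio of EIF1 to EIF1B rose by 0.44, that of EIF4E to EIF4E3 changed by -1.18 and that of EIF4G1 to EIF4G2 by 0.11 (exact two-sided permutation test p = 0.10 for each). The ratio of EIF4G1 to EIF4G3 changed by -0.06 (p = 0.30, exact permutation test). With 3 libraries a group no pair can pass 0.05 in this test.

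Of the 10 members with the pyrimidine run at the start, 6 were called higher (EIF2A, EIF3D, EIF3F, EIF3M, EIF4A2 and EIF4B), EIF2D was called lower and EIF2S3, EIF2S3B and EIF3K did not pass. Of the 31 tested members with a window and without it, 15 were higher, 12 lower and 4 did not pass. Over all 788 tested genes with this start, 413 were higher (52.4%) and 239 lower (30.3%), beside 40.6% higher and 40.4% lower of the 10724 tested genes with a window. These shares are descriptions without a test, and the part of this start in the rises and falls was not tested.

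The E-box CACGTG, the same on both strands and bound by MYC and related factors, was found in a window of 10 of the 43 members (23.3%) and of 8.77% of all genes with a window. Of these 10, 5 were higher (EIF1B, EIF3F, EIF4B, EIF4H and EIF5A2), 3 lower (EIF2B3, EIF4A3 and EIF4E) and 2 (EIF3K and EIF4G1) did not pass, beside 46.8% higher and 35.3% lower of the 1346 tested genes with the E-box. Among genes that passed the count filter, 24.4% of the members and 12.6% of all genes with a window held it, and EIF3F, EIF3K and EIF4B also have the pyrimidine run. EIF5A2, EIF4E and EIF4G1 hold it at 2 places, which are shown for a gene that rose and a gene that did not pass, with the motif in capitals.
EIF5A2, chr3:170908779-170908839, minus strand: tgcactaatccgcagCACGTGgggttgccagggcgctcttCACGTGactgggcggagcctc
EIF4G1, chr3:184314447-184314559, plus strand: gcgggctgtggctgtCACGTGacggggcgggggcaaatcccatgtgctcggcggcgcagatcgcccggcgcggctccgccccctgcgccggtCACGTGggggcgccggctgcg
TGATGNAA, the core bound by the stress factor ATF4 with its partners, was found on either strand only in a window of EIF4E3 (1 of 43 members, 2.33%, beside 4.46% of all genes with a window). Among genes that passed the count filter the shares were 2.44% of the members and 2.67% of all.

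Regulators and partners of the factors were taken from a list of 34 genes. Of 33 tested, 22 were higher (66.7%, beside 39.0% of all genes), 9 were lower (27.3%, beside 38.6%) and 3 reached 2-fold (9.09%, beside 27.1%). EIF4EBP1, which holds eIF4E away from eIF4G, rose from 78.8, 73.2 and 69.4 CPM to 247, 233 and 220 CPM (log2 fold change 1.66 ± 0.052 SE, adjusted p = 2.9e-13). EIF4EBP2, of the same family, fell from 123, 119.9 and 129 CPM to 53.3, 49.7 and 52.9 CPM (log2 fold change -1.25 ± 0.046 SE, adjusted p = 1.4e-12). The groups lay apart in opposite directions for EIF4EBP1 and EIF4EBP2. EIF4EBP3, also of this family, was at 4.19, 3.12 and 3.14 CPM in untreated and 5.33, 3.97 and 4.91 CPM in rhCYGB libraries. It was called higher, with overlap of the groups (log2 fold change 0.45 ± 0.17 SE, adjusted p = 0.023). MKNK2, a kinase that phosphorylates eIF4E, rose from 266, 269 and 263 CPM to 727, 705 and 712 CPM (log2 fold change 1.43 ± 0.034 SE, adjusted p = 1.4e-14), whereas MKNK1 was 0.41 lower on the log2 scale. PDCD4, which blocks eIF4A, fell from 69.0, 67.1 and 70.6 CPM to 48.8, 42.7 and 46.5 CPM (log2 fold change -0.58 ± 0.052 SE, adjusted p = 6.9e-08).

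Both enzymes that place hypusine on eIF5A rose while EIF5A fell, DHPS by 0.73 and DOHH by 0.72 on the log2 scale. Of 11 elongation and release genes 8 were higher (72.7%, beside 39.0% of all genes) and 2 lower (18.2%, beside 38.6%), among them EEF2 (0.52) and EEF1A1 (0.33), which move the ribosome and deliver aminoacyl-tRNAs, and EEF2K (-0.40), the kinase that inactivates eEF2. Of 9 other initiation genes 5 were higher (55.6%) and 3 lower (33.3%), with PABPC4 (0.57), a poly(A)-binding protein, at the top and ABCE1 (-0.61), which splits ribosomes after termination, at the bottom.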

How the data were processed

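RNA-seq was performed on 3 untreated and 3 rhCYGB-treated MIA PaCa-2 libraries, grouped by their labels. Per the study's methods and processing notes, libraries were made with a stranded mRNA kit, and reads were checked with FastQC 0.11.7, mapped with HISAT2 2.1.0 and assembled with StringTie 2.1.3b. The read counts per gene and per transcript were deposited by the authors without normalization, as were FPKM values, which the authors scaled to length and depth. The processing notes name mm10, a mouse build, and the tables name none, so no positions of the tables are given. Strand use in counting was not stated. TPM values, also deposited by the authors (6 columns per table), were not used.

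Genes were filtered with filterByExpr, scaled by TMM and tested with edgeR 4.0.16 (glmQLFit, glmQLFTest, no block) in R 4.3.3, with Benjamini-Hochberg adjustment over all genes (14728) or transcripts (32577) tested. The dispersion shared by all genes (0.0030) corresponds to a spread between libraries of 5.48%. A gene was called at an adjusted p under 0.05. The upper limit given for genes with 0 counts covers counting error only, and reads carried no molecular identifiers. The gene and transcript fits were tested on simulated data, where the transcript fit was much less sensitive. The gene fit called 66 of 66 changes of 4-fold, 66 of 67 of 2-fold and 44 of 67 of 1.3-fold. The transcript fit called 34 of 66, 17 of 66 and 1 of 67. A transcript that did not pass may therefore still have changed. Every member is accounted for, with library values for members past 2-fold, the largest rise and fall of each role group, both members of each paralog pair, and EIF4EBP1, EIF4EBP2, MKNK2 and PDCD4. The genes and transcripts given beyond this rule were picked after their values were seen, as were the motifs searched. The members and lists were chosen with earlier results of these data known. Alternatives were DESeq2 1.42.0 (size factors, Wald test), upper-quartile factors, total counts, other filters, limma 3.58.1 on log2(FPKM + 1) and log2(FPKM + 0.1), transcript sums, the replicate block and leaving out each library.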

Additional observations from a re-analysis of the deposited data

How the results depend on the processing

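Of the 40 members called, 30 kept their direction and their side of the threshold under all 16 alternatives, among them the 7 changed 2-fold or more. The number of members called ranged from 37 to 42. Upper-quartile factors gave 24 higher and 18 lower members (57.1% of the calls higher), total counts gave 22 and 19 (53.7%) and both FPKM fits gave 21 and 16 (56.8%), beside 27 and 13 (67.5%) with TMM. Over all genes, 42.4% of the calls were higher with upper-quartile factors and 41.0% relative to total counts. The all-gene shares were 41.2% on log2(FPKM + 1), 41.1% on log2(FPKM + 0.1) and 50.2% with TMM. With limma on log2(FPKM + 1), 4 members passed 2-fold (EIF1, EIF1B, EIF2S2 and EIF5A), with EIF4A2 (0.92), EIF5A2 (0.79) and EIF5AL1 (-0.85) below it. The added 1 is large beside the FPKM group means of EIF5A2 (2.61 untreated, 5.24 rhCYGB) and EIF5AL1 (2.65 untreated, 1.03 rhCYGB). Relative to total counts EIF4A2 was below 2-fold and EIF2B1 (-1.02) past it. The log2 ratio of EIF4E to EIF4E2 changed by -0.33 in FPKM. Some members that did not pass, and EIF4A1, turned direction. With upper-quartile factors the log2 fold change was -0.134 for EIF2S3, -0.116 for EIF3K, -0.0915 for EIF3L, -0.111 for EIF4G1 and -0.0540 for EIF4G3. Relative to total counts it was -0.157 for EIF2S3, -0.141 for EIF3K, -0.115 for EIF3L, -0.0054 for EIF4A1, -0.134 for EIF4G1 and -0.0771 for EIF4G3. On log2(FPKM + 1) it was -0.156 for EIF2S3, -0.142 for EIF3K, -0.111 for EIF3L, -0.00466 for EIF4A1, -0.124 for EIF4G1 and -0.0333 for EIF4G3, and on log2(FPKM + 0.1) it was -0.156, -0.143, -0.112, -0.00467, -0.125 and -0.0351 for these genes and -0.0337 for EIF2S3B. EIF2S3 was also at -0.00276 with DESeq2 size factors, -0.00268 in the DESeq2 Wald test and -0.0101 with at least 10 counts in every library. With 1 library left out, EIF1AD lay between -0.0890 and 0.0614 (reversed without rhCYGB library 2), EIF2S3 between -0.00144 and 0.0241 (without untreated library 3), EIF2S3B between -0.339 and 0.552 (without rhCYGB library 2) and EIF3K between -0.00602 and 0.0793 (without rhCYGB library 1). Beyond the scalings, the cause of these reversals was not tested. The number of member transcripts called lower, 18 with all libraries, fell to between 11 and 15 with 1 library left out, 11 of them without untreated library 2.

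Correlations between same-numbered libraries were -0.048, 0.0072 and 0.0055, and those between differently numbered libraries lay between -0.055 and 0.054. These values show no pairing by replicate number. They cannot exclude a shared culture or day, and the labels do not say what a number marks. With the replicate block 40 members were called (27 higher, 13 lower), EIF2B3 losing its call and EIF4G2 gaining one, and 45 member transcripts were called in place of 57. Depth limits EIF2S3B and EIF4E3, with at most 44 counts per library.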
